A study of Mus musculus with 16 samples.

Results

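The transcripts present in type 1 conventional dendritic cells (cDC1) of a lymph node that does not drain a tumour were ranked by their array signal. The 4 arrays used were those of Het cells from the non-draining node, out of 16 in the series, and they were taken by their titles and genotype and location labels. Mice were of the C57BL/6 strain and carried WDFY4 Het, which leaves 1 intact copy of Wdfy4. They had received tumours described as regressor tumors in the back flank, and on day 6 the inguinal node of the flank without drainage from the tumour was digested with collagenase B and DNase I before cDC1 were sorted. The labels describe these cells as unactivated and the node as skin draining. Total RNA was labelled with biotin and hybridised to Affymetrix mouse arrays, 1 sample per array. No level of the 12 other arrays, of the draining node and of KO cells, is given here. All 16 arrays had been normalized together, so the others bear on each intensity through that step. They also entered the alternative that chose the probe set over all 16 arrays. No array of mice with 2 intact copies of the gene was used, so the levels are those of Het cells. Whether the 4 arrays stand for separate mice is not in the labels, and the spread between them may be partly technical.

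Conventional dendritic cells carry antigen from tissues to lymph nodes and present it to T cells. The cDC1 subset depends on the transcription factors IRF8 and BATF3, takes up material from dead cells and shows the peptides it makes from it to CD8 T cells on class I molecules, which is termed cross-presentation. A lymph node holds cDC1 that live there and cDC1 that have migrated from the skin, and the migrated cells have matured on the way. RNA of a sorted sample is a mixture, so fewer cells of a type and less RNA per cell cannot be told apart.

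Levels are given as log2(intensity + 1), with the SD over the 4 arrays after ±, or as linear intensities for each array. Each of the 19938 genes was read on its brightest probe set, the group of short probes that the array holds for a transcript. Probe sets bind their targets with different strength, so the order of genes is an order of signal, not of transcript copies, and no test was made between genes. The background level was set at 5.68, an intensity of 50.3, which is the 99th percentile of 1242 chemosensory receptor genes, a family used for smell and taste. Those genes had a median of 3.47, and 13 of them lay above the level. Of all genes, 9583 (48.1%) lay above background. Array medians ran from 39.4 to 40.1 in intensity. An array has no read depth, and it is the number of arrays that limits the precision.

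The 5 marker genes of cDC1 all lay above background on every array, and they ranked between 116 and 672 among all genes. Irf8, the lineage factor, read 3295, 3586, 2703 and 3104 on arrays 1 to 4, a level of 11.62 ± 0.17 and rank 116. Wdfy4, which encodes a BEACH-domain protein needed to cross-present cell-associated antigen, read 3332, 3222, 2278 and 2386, a level of 11.43 ± 0.29 and rank 143. A second probe set of Wdfy4 read 9.04, so the level given for the gene depends on the probe set. Both genes were higher on arrays 1 and 2 than on arrays 3 and 4.

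Xcr1, the receptor for the chemokine that CD8 T cells and NK cells release, read 2054, 2252, 1360 and 1240 (10.71 ± 0.43, rank 298). Its arrays 1 and 2 lay well above arrays 3 and 4, and its rank on single arrays ran from 198 to 443. Clec9a, a lectin receptor for actin exposed by dead cells, read 1154, 1498, 1108 and 1031 (10.21 ± 0.23, rank 456), with array 2 highest. Batf3, a bZIP factor, read 750, 777, 925 and 1046 (9.76 ± 0.22, rank 672), and here arrays 3 and 4 lay above arrays 1 and 2. The cells labelled cDC1 thus carried all 5 markers, with a summed intensity between 8374 and 11336 over the arrays.

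**Figure D1:**
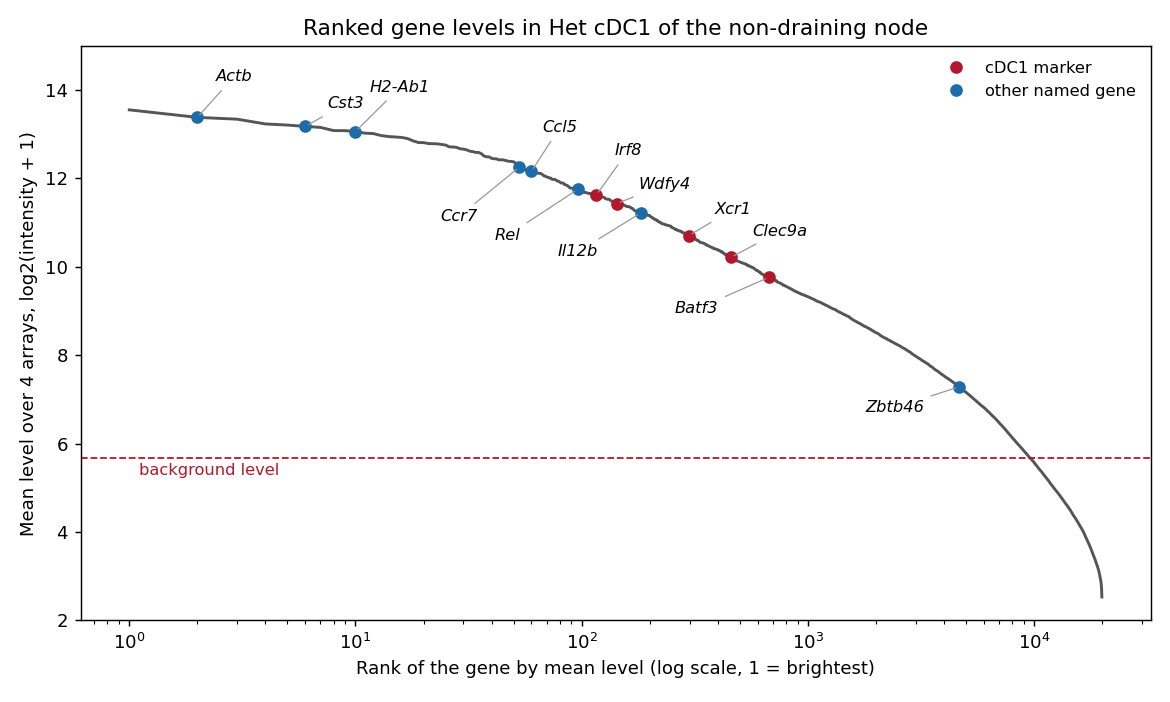
Mean level of each of the 19938 genes over 4 arrays, in log2(intensity + 1), against its rank on a log scale, with cDC1 markers in red, other named genes in blue and the background level as a dashed line. The 5 markers sit between rank 116 (Irf8) and rank 672 (Batf3), while Actb is at rank 2 and Zbtb46 at rank 4653, still above background.

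A further list of 28 genes known from cDC1 had 27 above background, with a median of 8.92, against 48.1% and a median of 5.58 over all genes. It included the lysosomal thioesterase gene Ppt1 (11.84 ± 0.34), the surface protein gene Cd24a (11.67 ± 0.18), the lipid amidase gene Naaa (11.66 ± 0.28), Flt3, the receptor for the cytokine that dendritic cells grow on (10.72 ± 0.15), and the transcriptional inhibitor gene Id2 (10.57 ± 0.23). The adhesion gene Cadm1 read 1014, 1150, 737 and 739 and Tlr3, a sensor of double-stranded RNA in endosomes, read 1014, 1513, 666 and 672. Both were higher on arrays 1 and 2, and the SD of 0.56 for Tlr3 was the largest of the list. Cd8a, which marks the cDC1 that live in the node, read 300, 333, 255 and 216 (8.10 ± 0.27), and Itgae, the integrin CD103 that marks migratory cDC1, read 228, 285, 175 and 155 (7.69 ± 0.39). Both therefore lay above background on every array, and these bulk levels do not separate the populations. Zbtb46, a zinc finger factor of conventional dendritic cells, stood at 7.28 ± 0.24, and Wfdc17 (5.12 ± 0.24) was the member below background. Tlr11 and 3 other genes of the list were not analysed here.

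The stretch before the transcription start, where many regulatory factors bind, is shown for 3 of the markers and for 2 of the 100 brightest genes, because they show how unlike these promoters are in sequence. Each is the 250 bases before the start, 5′ to 3′ on the gene's strand, from RefSeq on GRCm38.p6. Irf8 lies at chr8:120736108-120736357 on the plus strand (the first of its 2 listed starts), Clec9a at chr6:129408612-129408861 (plus), Batf3 at chr1:191098164-191098413 (plus), Fscn1, an actin-bundling protein of mature dendritic cells, at chr5:142960105-142960354 (plus), and Apol7c, an apolipoprotein L family gene, at chr15:77533316-77533565 (minus). Capitals mark the letters of a motif searched on both strands. The 6 motifs were the TATA box, searched as TATAAA, the NF-Y box, which reads CCAAT, the AP-1 element with the letters TGANTCA, the ETS element CCGGAAGT, an NF-kB element, which is GGG, any 2 bases and TTTCC, and a pair of IRF elements, which repeats GAAA after a gap of 2 bases.
Irf8: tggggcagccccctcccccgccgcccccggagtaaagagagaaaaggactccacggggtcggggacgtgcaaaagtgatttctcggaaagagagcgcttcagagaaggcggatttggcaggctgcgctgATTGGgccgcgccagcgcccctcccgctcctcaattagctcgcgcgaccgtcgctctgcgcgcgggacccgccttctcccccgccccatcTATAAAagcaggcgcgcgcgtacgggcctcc
Clec9a: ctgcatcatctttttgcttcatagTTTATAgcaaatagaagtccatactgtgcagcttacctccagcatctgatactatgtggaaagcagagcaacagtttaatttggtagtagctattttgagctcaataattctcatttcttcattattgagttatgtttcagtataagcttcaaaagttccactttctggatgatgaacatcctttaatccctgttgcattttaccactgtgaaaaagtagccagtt
Batf3: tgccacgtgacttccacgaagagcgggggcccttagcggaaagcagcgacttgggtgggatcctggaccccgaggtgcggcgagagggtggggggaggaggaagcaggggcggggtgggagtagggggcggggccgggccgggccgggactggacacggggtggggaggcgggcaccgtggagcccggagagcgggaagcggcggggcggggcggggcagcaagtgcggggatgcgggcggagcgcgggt
Fscn1: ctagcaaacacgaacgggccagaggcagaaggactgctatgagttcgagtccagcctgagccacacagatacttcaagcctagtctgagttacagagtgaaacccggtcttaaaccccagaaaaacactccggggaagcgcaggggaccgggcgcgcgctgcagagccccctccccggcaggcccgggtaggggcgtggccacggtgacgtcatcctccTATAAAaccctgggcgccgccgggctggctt
Apol7c: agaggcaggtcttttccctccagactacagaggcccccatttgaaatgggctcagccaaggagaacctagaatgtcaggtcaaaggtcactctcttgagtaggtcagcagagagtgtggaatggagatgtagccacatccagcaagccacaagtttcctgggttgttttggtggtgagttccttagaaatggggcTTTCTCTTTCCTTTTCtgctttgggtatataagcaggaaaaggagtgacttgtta

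Irf8 and Fscn1 each held the TATA letters with their first base 31 bases before the start, and Irf8 also held the CCAAT letters 121 bases before it. Clec9a held the TATA letters on the other strand, 226 bases before the start, in a window of 37% G and C with 1 CpG. Batf3 held none of the 6 motifs, in a window of 75.7% G and C with 34 CpGs (both counted over 300 bases, of which the last 50 follow the start). Apol7c held 2 overlapping IRF pairs on the other strand, whose first bases are 55 and 49 bases before the start, and it held no CpG.

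A promoter entry was found for 15614 of the ranked genes, and shares are given over the whole 300 bases. The TATA letters were in 3 of the 5 markers (Xcr1, Clec9a and Irf8), in 14.3% of the 77 of the 100 brightest genes that had an entry, and in 13.6% of all ranked genes with an entry. The IRF pair was in 10.4% of the same 77 genes and in 3.89% of all, and in none of the 5 markers. Without ribosomal protein genes it was in 3 of the 50 bright genes that had an entry. Genes above background had a median of 21 CpGs per window and genes at or below it 7, while the 5 markers had a median of 6. A match in letters is a description and not a bound site.

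The brightest genes were those of protein synthesis, the actin cytoskeleton and MHC class II presentation. Among the 100 brightest, 35 encode ribosomal proteins, 8 belong to the actin and tubulin cytoskeleton list, 4 to MHC class II presentation, 4 to the lysosome, 3 to translation factors and 3 to MHC class I presentation. The 10, 100 and 1000 brightest genes gave 2.71% to 2.81%, 15.9% to 16.1% and 48.3% to 49.1% of the summed intensity of all genes on the 4 arrays. Lists of the 100 brightest genes made for each array shared 83 genes and held 119 different genes together.

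Eef1a1, the translation elongation factor that delivers tRNA, was the brightest gene and read 11726, 11679, 12282 and 12401 (13.55 ± 0.04). Actb, cytoplasmic actin, read 10948, 10609, 10535 and 10652 (13.38 ± 0.02), and no array of Actb reached any array of Eef1a1. The non-coding host gene of small nucleolar RNAs, Gas5, stood at 13.34 ± 0.08 on its brightest probe set, but its next probe set read 10.37 and the median over its 4 probe sets was 8.66. Cst3, the secreted cathepsin inhibitor cystatin C, read 9227, 9748, 9069 and 9036 (13.18 ± 0.05, rank 6). The brightest ribosomal protein genes were Rps14 (13.21 ± 0.12), Rps12 (13.16 ± 0.03), Rps21 (13.08 ± 0.08), Rplp0 (13.08 ± 0.08) and Rpsa (13.03 ± 0.08). Among the 30 brightest genes outside ribosomal proteins and unnamed or small RNA genes, 27 of the 29 pairs of neighbours had overlapping ranges. The exceptions were Eef1a1 above Actb and Gas5 above Cst3, the latter for the brightest probe set of Gas5 only. Ranges were compared without pairing the genes by array, so an overlap does not show that neighbours are equal in signal. Cst3, for one, exceeded its neighbour H2-Ab1 on every array although their ranges overlapped.

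Genes of the MHC class II pathway, which loads peptides from endosomes for CD4 T cells, were among the brightest, with H2-Ab1, H2-Aa, Cd74 and H2-Eb1 at ranks 10, 18, 22 and 27. H2-Ab1, a class II beta chain, read 8778, 9478, 8280 and 7782 (13.06 ± 0.12, rank 10), and the alpha chain gene H2-Aa read 7668, 7864, 7227 and 6823 (12.85 ± 0.09, rank 18). Cd74, the invariant chain that guides class II to endosomes, read 8171, 7746, 6369 and 6197 (12.79 ± 0.20, rank 22). All of these read higher on arrays 1 and 2 than on arrays 3 and 4. Of the 10 class II genes measured, 9 lay above background, against 48.1% of all genes. H2-Ea, whose promoter is deleted in this strain, stood at 4.23 ± 0.10 and was below it.

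All 17 measured genes of MHC class I presentation lay above background, with a median of 10.60, against 48.1% and a median of 5.58 over all genes. B2m, the light chain of class I, read 8171, 7507, 7855 and 7668 (12.93 ± 0.05, rank 16). Psme2, a subunit of the proteasome activator that interferon gamma induces, read 4515, 4040, 5862 and 6267 (12.31 ± 0.30), and the immunoproteasome subunit gene Psmb9 read 3643, 3838, 4641 and 4730 (12.03 ± 0.19). Both of these were lower on arrays 1 and 2. Nlrc5, the transactivator of class I genes, read 3210, 3117, 3258 and 3172 (11.64 ± 0.03), close on all arrays, although the median over its 19 probe sets was 9.30. Class I heavy chain genes such as H2-K1 and H2-D1 were not analysed here.

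Cross-presentation and phagosome genes were above background for 23 of 25 members, against 48.1% of all genes. The brightest were Cyba, the membrane subunit of the phagocyte oxidase (12.12 ± 0.12), Apol7c (3612, 2978, 3766 and 3621, 11.77 ± 0.15), Ifi30, the thiol reductase that unfolds antigen in lysosomes (11.59 ± 0.05), and Tap1, a chain of the peptide transporter (11.58 ± 0.10). Array 2 was the lowest for Apol7c. Other bright genes of the vesicle and secretory system were Laptm5, a lysosomal membrane protein of blood cells (12.67 ± 0.12), Cd63, a tetraspanin of late endosomes (12.61 ± 0.11), Psap, the precursor of the saposins that help digest sphingolipids (12.42 ± 0.17), and Srgn, the proteoglycan core of secretory granules (12.70 ± 0.10). Dusp1, a phosphatase that shuts off MAP kinases and is induced early after stimulation or tissue digestion, read 6836, 8269, 7910 and 8468 (12.94 ± 0.14, rank 15).

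Of 972 transcription factor genes measured, 517 (53.2%) lay above background, near the 48.1% of all genes, and 33 were among the 1000 brightest. All 14 IRF and STAT genes lay above background, 40 of 49 bZIP genes, 9 of 14 Rel and NFAT genes, 15 of 23 ETS genes, 275 of 502 zinc finger genes and 19 of 43 nuclear receptor genes. The brightest were the NF-kB subunit gene Rel, the AP-1 gene Fosb and Irf8. Rel read 3776, 3842, 3154 and 3088 (11.75 ± 0.17, rank 96). Fosb read 3673, 4153, 2768 and 2357 (11.63 ± 0.37), with arrays 1 and 2 above arrays 3 and 4, and its rank on single arrays ran from 68 to 198.

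Klf6, a zinc finger gene of the immediate early class, followed with 2323, 2701, 2518 and 2697 (11.32 ± 0.10). None of its arrays reached the lowest one of Irf8, but at 2701 against 2703 this was close to a tie. Etv3, an ETS family repressor, read 1987, 1851, 2401 and 2580 (11.09 ± 0.22), higher on arrays 3 and 4. The orphan nuclear receptor genes Nr4a1 (2203, 2273, 1772 and 1813, 10.97 ± 0.19) and Nr4a2 (2406, 2478, 1714 and 1572, 10.97 ± 0.33) went the other way. Both are induced early by signalling. Mef2a (10.73 ± 0.09), Id2 (10.57 ± 0.23), Stat3, the factor downstream of IL-10 and IL-6 family cytokines (10.48 ± 0.13), and Jun (10.45 ± 0.14) came next.

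NF-kB genes beside Rel were Relb (1331, 1042, 1525 and 1417, 10.36 ± 0.24) and Nfkb2 (1044, 981, 1074 and 1184, 10.06 ± 0.11), the partners of the non-canonical pathway that matures dendritic cells. Array 2 was the lowest for both. Spi1, which encodes the myeloid factor PU.1, read 1015, 979, 1010 and 992 (9.97 ± 0.02), the smallest SD among the 25 brightest transcription factors. Irf5 stood at 9.40 ± 0.16 and Nfil3, which acts upstream of cDC1 development, at 9.37 ± 0.11. Irf4, which cDC2 use and maturing dendritic cells also express, read 129, 88, 136 and 163 (6.99 ± 0.37), the dimmest of the 14 IRF and STAT genes but above background on every array. Of the 24 pairs of neighbours among the 25 brightest, only Irf8 and Klf6 did not overlap between arrays, and they nearly touched (2703 against 2701). Of the 25 genes, 19 were in the 25 brightest of every array.

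**Figure D2:**
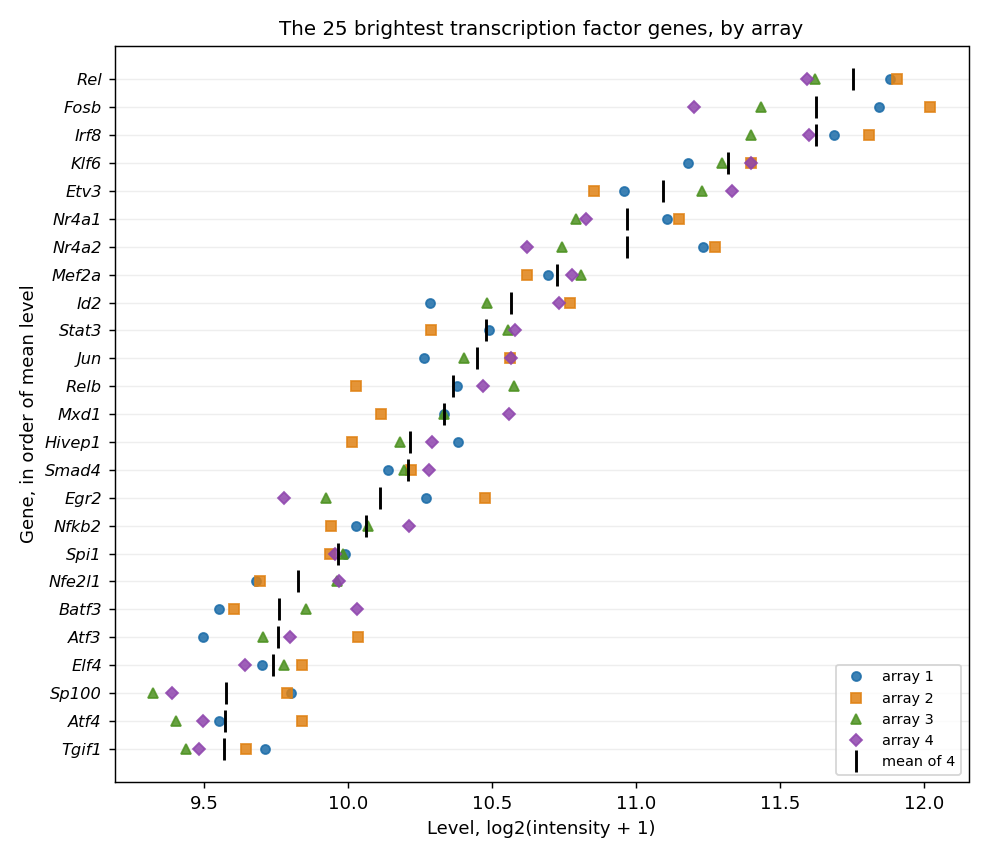
Levels of the 25 brightest transcription factor genes in log2(intensity + 1), with a symbol for each of the 4 arrays and a bar for their mean, in order of the mean. Spi1 is tightest at 9.97 ± 0.02 and Fosb widest at 11.63 ± 0.37, and neighbouring genes overlap except Irf8 and Klf6, which nearly touch.

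Of 638 receptor and surface genes, 296 (46.4%) lay above background, near the share of all genes, and 57 were among the 1000 brightest. The brightest was Ccr7, the chemokine receptor that brings dendritic cells into the node and its T cell zone, which read 4680, 4308, 4951 and 5731 (12.26 ± 0.17, rank 53). Array 4 was the highest and array 2 the lowest. Ly6e, a lipid-anchored surface protein, read 4807, 3982, 3398 and 3250 (11.90 ± 0.26), and Selplg, a ligand of selectins, read 3401, 2968, 3808 and 4016 (11.78 ± 0.19). They were followed by Cd24a and by Cxcr4, the receptor for CXCL12 (3068, 3351, 2681 and 2771, 11.53 ± 0.15).

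By class, the shares above background were 13 of 18 pattern recognition genes (72.2%), 16 of 68 C-type lectin genes (23.5%) and 18 of 39 scavenger and dead-cell uptake genes (46.2%). They were 62 of 187 chemokine and other chemoattractant receptor genes (33.2%), 56 of 91 cytokine and growth factor receptor genes (61.5%) and 18 of 27 TNF receptor family genes (66.7%). Of all genes, 48.1% lay above background, so the lectin and chemoattractant classes were below that share and the scavenger class near it. Tlr3 was the brightest pattern recognition gene, ahead of Ly86 (9.76 ± 0.17), which encodes the MD-1 partner of the RP105 receptor, and Unc93b1 (9.31 ± 0.28), the chaperone that takes nucleic acid sensors to endosomes. Clec9a was the brightest C-type lectin, ahead of Clec2d (9.51 ± 0.19), Clec12a (9.33 ± 0.16) and Ly75, the endocytic receptor DEC-205 (551, 604, 589 and 740, 9.27 ± 0.18). In the scavenger and dead-cell uptake class, which does not include the brighter Clec9a (10.21 ± 0.23), the first gene was Havcr2. It encodes TIM-3 and read 587, 651, 333 and 298 (8.79 ± 0.57). Arrays 1 and 2 stood far above arrays 3 and 4 for it, as for Xcr1.

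Among cytokine and growth factor receptors the common beta chain gene Csf2rb2 (2006, 1493, 1898 and 2066, 10.86 ± 0.21) and Flt3 (1496, 1592, 1780 and 1885, 10.72 ± 0.15) led. Notch2 (10.28 ± 0.29), a receptor for Delta ligands, followed. After it came the common beta chain gene Csf2rb (10.19 ± 0.20) and Il4ra, a chain of the IL-4 and IL-13 receptors (10.19 ± 0.22). The similar sequence of Csf2rb and Csf2rb2 leaves the split of signal between them uncertain. Of the TNF receptor family, Tnfrsf4, which encodes OX40 and is best known from T cells, read 2015, 1691, 2854 and 2888 (11.17 ± 0.38), Cd40, which receives help from T cells, read 961, 951, 1342 and 1348 (10.15 ± 0.28), and Tnfrsf1b stood at 10.10 ± 0.32. All of these were higher on arrays 3 and 4. Anpep, the peptidase CD13, read 2872, 2959, 1778 and 1685 (11.13 ± 0.44), the widest spread among the 30 brightest receptors, and it was higher on arrays 1 and 2. Itga4 stood at 11.16 ± 0.08, Slamf7 at 11.21 ± 0.13, Plxnc1 at 10.89 ± 0.25, Cd47 at 10.87 ± 0.23 and Cd52 at 10.79 ± 0.05.

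Of the 29 pairs of neighbours among the 30 brightest receptors, only Cxcr4 and Slamf7 did not overlap between arrays, and 21 of the 30 were in the 30 brightest of every array. The median SD was 0.22 for receptors above background, 0.19 for transcription factors and 0.17 for secreted factors, against 0.18 for all genes above background.

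**Figure D3:**
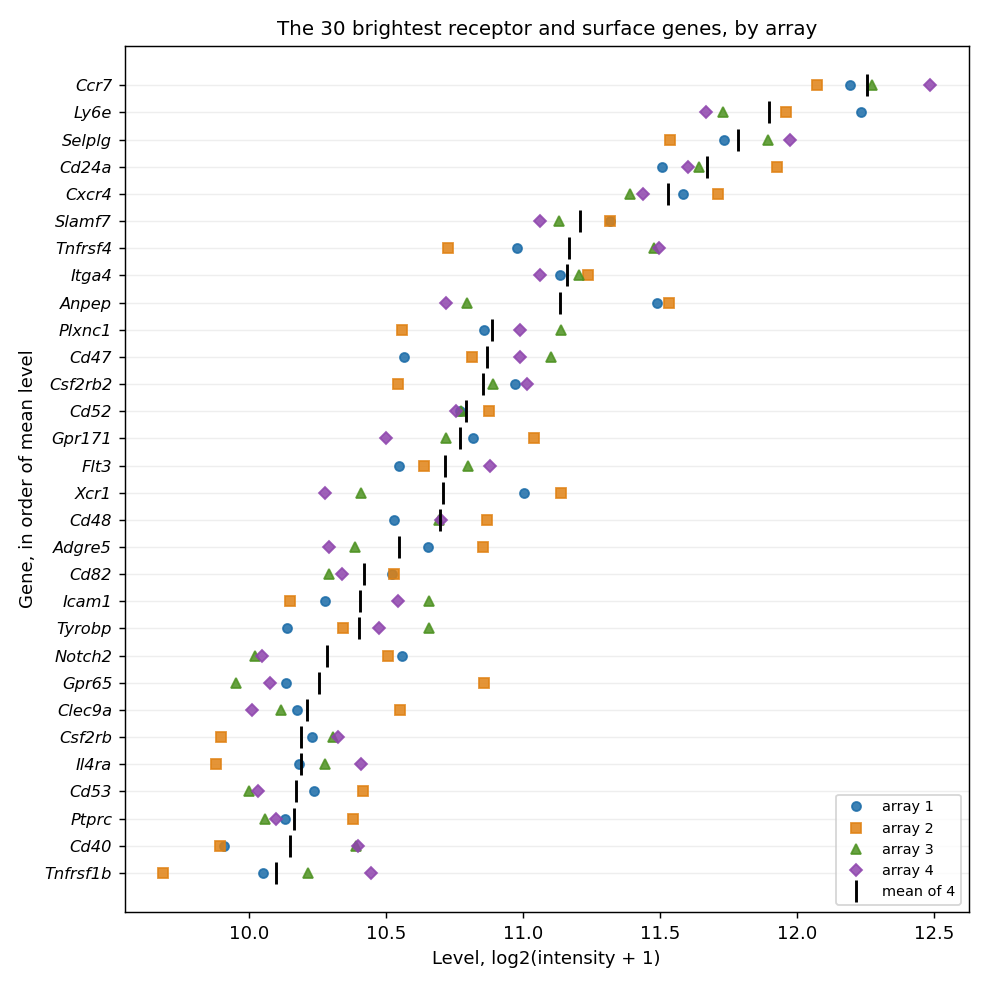
Levels of the 30 brightest receptor and surface genes in log2(intensity + 1), with a symbol for each of the 4 arrays and a bar for their mean, in order of the mean. Ccr7 leads at 12.26 ± 0.17, and Xcr1 (10.71 ± 0.43) and Anpep (11.13 ± 0.44) show arrays 1 and 2 apart from arrays 3 and 4.

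Of 592 secreted factor genes, 160 (27.0%) lay above background, a smaller share than the 48.1% of all genes, and 15 were among the 1000 brightest. After Cst3 and Psap came the chemokine genes Ccl5 and Cxcl16. Ccl5, which attracts T cells, read 4426, 4434, 4714 and 4755 (12.16 ± 0.06, rank 60). Cxcl16, the ligand of CXCR6, read 3076, 3380, 3538 and 3920 (11.76 ± 0.15). Cxcl9, an interferon gamma induced ligand of CXCR3, read 1720, 1659, 1192 and 1068 (10.43 ± 0.34), higher on arrays 1 and 2, and Ccl22, a ligand of CCR4 on regulatory T cells, read 1383, 1009, 1533 and 1528 (10.39 ± 0.28), lowest on array 2. Of 36 chemokine genes, 20 lay above background.

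Il12b, the subunit shared by IL-12 and IL-23, read 2178, 2549, 2319 and 2477 (11.22 ± 0.10, rank 182) and was the brightest of 66 interleukin and interferon genes. Its probe set lists only transcripts outside the RefSeq entry of the gene. Of the 66 genes, 16 (24.2%) lay above background, a smaller share than the 48.1% of all genes. Il1b read 1423, 1627, 1148 and 1134 (10.36 ± 0.25), and Il15, which keeps CD8 memory and NK cells alive, read 772, 823, 1297 and 1483 (10.04 ± 0.47). Il15 was thus higher on arrays 3 and 4 and Il1b on arrays 1 and 2. Of 15 TNF family ligand genes 8 (53.3%) lay above background, near the share of all genes. They were led by Tnf (376, 362, 339 and 371, 8.50 ± 0.07), Ltb (8.27 ± 0.22) and Tnfsf9, the ligand of 4-1BB (8.01 ± 0.26).

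Secreted genes of the lysosome and of lipid handling were also bright. Gm2a, an activator of ganglioside breakdown, stood at 10.97 ± 0.25, Npc2, which carries cholesterol out of lysosomes, at 10.77 ± 0.15, and Grn, the precursor of granulins, at 10.21 ± 0.06. Clu, the extracellular chaperone clusterin, read 1150, 1034, 1757 and 1831 (10.45 ± 0.42), higher on arrays 3 and 4. Mfge8, which bridges dead cells to phagocytes, read 639, 411, 864 and 781 (9.34 ± 0.47), lowest on array 2, and Tgfb1 read 700, 560, 343 and 308 (8.82 ± 0.56). Among the 20 brightest secreted factors, 4 of the 19 pairs of neighbours did not overlap between arrays, and these were Cst3, Psap, Ccl5, Cxcl16 and Il12b in turn. The signals of these 5 probe sets were separate beyond the spread between arrays, which does not order the amounts of their transcripts.

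**Figure D4:**
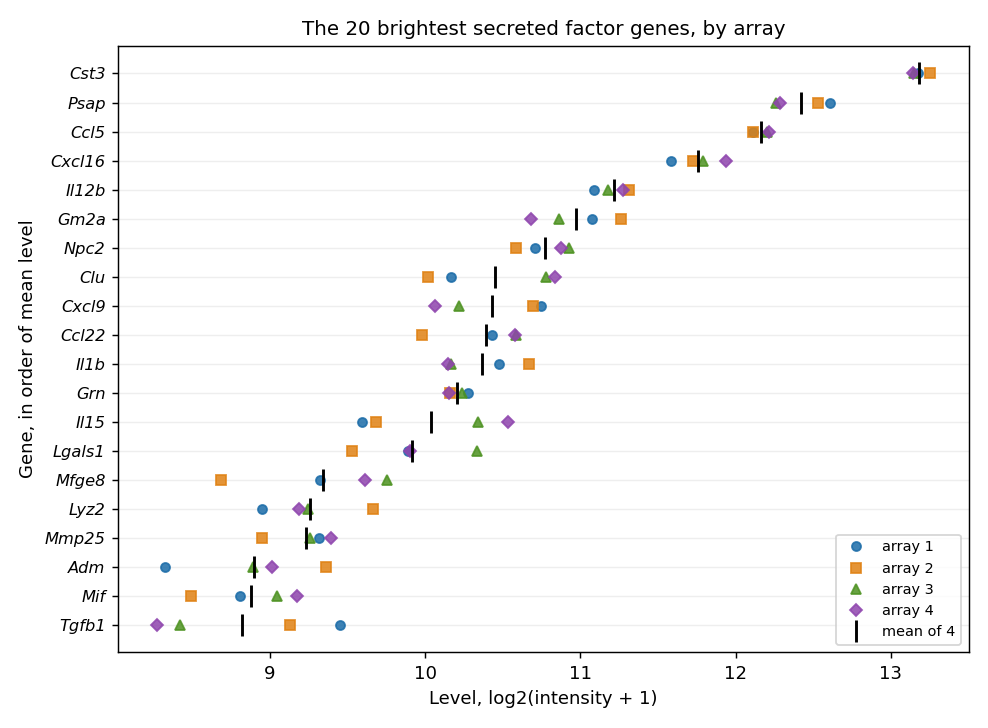
Levels of the 20 brightest secreted factor genes in log2(intensity + 1), with a symbol for each of the 4 arrays and a bar for their mean, in order of the mean. Cst3 (13.18 ± 0.05), Psap (12.42 ± 0.17), Ccl5 (12.16 ± 0.06), Cxcl16 (11.76 ± 0.15) and Il12b (11.22 ± 0.10) are separate from each other on all arrays, and Tgfb1 (8.82 ± 0.56) spreads widest.

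Genes of dendritic cell maturation and of migration from the skin were bright although the labels describe the cells as unactivated. Of 20 maturation and costimulation genes, 18 lay above background, with a median of 9.66, against 48.1% and a median of 5.58 over all genes. Fscn1, which shapes the dendrites of mature cells, read 5528, 4158, 5971 and 5984 (12.39 ± 0.25, rank 49), lowest on array 2. Cd86, a costimulatory ligand of CD28, read 2075, 2432, 1750 and 1704 (10.94 ± 0.24), Icam1 stood at 10.41 ± 0.24, Cd83 at 9.25 ± 0.18 and Cd80 at 9.14 ± 0.46. The checkpoint ligand gene Cd274 stood at 7.87 ± 0.11, lowest on array 2. Pdcd1lg2 (5.62 ± 0.24) and Tnfsf4, the ligand of OX40 (3.86 ± 0.26), were the members below background.

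Markers of migratory dendritic and Langerhans cells lay above background for 13 of 14 genes, against 48.1% of all genes. Their median was 10.88, against 5.58 over all genes, and their summed intensity lay between 32409 and 40391 over the arrays. The brightest were Tmem123 (6761, 6535, 7231 and 7174, 12.76 ± 0.07), Cd63, Fscn1 and Ccr7. Cd207, the Langerhans cell lectin that skin cDC1 also carry, stood at 7.40 ± 0.26, and Epcam, which marks Langerhans cells, was below background at 4.90 ± 0.20. The part of migrated cells in these levels was not tested. Genes that tissue digestion and early signalling induce lay above background for 19 of 19 members, against 48.1% of all genes. They were led by Dusp1, Fosb and Klf6, with a mean level of 9.34, 9.62, 9.39 and 9.36 on arrays 1 to 4. The nodes had been digested before sorting, and its part in these levels was not tested.

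Of 22 interferon response genes, 17 lay above background, with a median of 6.43, against 48.1% and a median of 5.58 over all genes. The brightest were Ifi205 (10.71 ± 0.48), Cxcl9 (10.43 ± 0.34), Gbp4 (10.12 ± 0.40) and Bst2 (9.78 ± 0.34). Cell cycle genes lay above background for 26 of 29, against 48.1% of all genes. Their median was 6.61, against 5.58 over all genes, and 1 of the 29 was among the 1000 brightest. This was the replication clamp gene Pcna (10.85 ± 0.09). The proliferation marker gene Mki67 read 611, 424, 367 and 278 (8.66 ± 0.47), highest on array 1.

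Markers of other cells were read beside these, against the 48.1% of all genes that lay above background. Neutrophil markers (0 of 10) and erythroid and platelet markers (0 of 4) all had means at or below background. T cell markers lay above it for 15 of 16 genes, with summed intensities between 1941 and 3650, and array 2 was lowest. Cd3g, a chain of the T cell receptor complex, read 727, 363, 672 and 694 (9.21 ± 0.47), and Cd3d, another chain, read 304, 170, 276 and 370 (8.08 ± 0.47). B cell markers went the other way, with a summed intensity between 628 and 1130 and array 2 highest. Of the 12 genes 6 lay above background, near the share of all genes. The brightest were Fcrla (7.73 ± 0.43), the B lineage factor gene Pax5 (6.71 ± 0.34), Cd22 (6.11 ± 0.43) and Pou2af1 (5.88 ± 0.22), while the antigen receptor chain gene Cd79a (5.64 ± 0.38) and Ms4a1, which encodes CD20 (4.90 ± 0.62), were below it.

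NK and cytotoxic markers lay above background for 3 of 11 genes (Ccl5, Klrk1 and Nkg7), with summed intensities of 4887 to 5258, most of it from Ccl5. The cytotoxic granule genes Gzmb (4.97 ± 0.38) and Gzma (4.13 ± 0.43) and the NK receptor gene Ncr1 (4.68 ± 0.33) were below it. The mean of the granule gene Prf1 (5.65 ± 0.26) was just below it too. Prf1 read 53, 37, 54 and 54, so every array but array 2 was slightly above background. For monocytes and macrophages 9 of 15 genes lay above background (summed 1977 to 2210), led by Lyz2 (9.26 ± 0.30), Vcam1 (8.09 ± 0.11), Cd68 (8.04 ± 0.24) and Apoe (7.91 ± 0.14). Among the 6 below it were the macrophage genes Adgre1 (5.05 ± 0.24), Mertk (4.25 ± 0.09) and Cd163 (3.86 ± 0.17). For cDC2, 10 of 14 genes lay above (3051 to 3541), led by Notch2 (10.28 ± 0.29), Clec12a (9.33 ± 0.16), Klf4 (8.40 ± 0.36) and Ltb (8.27 ± 0.22). The 4 cDC2 genes below were Mgl2 (5.39 ± 0.87), Itgam (4.83 ± 0.29), Clec10a (4.51 ± 0.24) and Clec4a4 (3.13 ± 0.07). Plasmacytoid dendritic cell markers lay above for 8 of 9 (1784 to 2086), with Siglech at 6.22 ± 0.21, plasma cell markers for 6 of 8 (867 to 991) and stromal markers for 5 of 12 (800 to 1030.2), with Ccl19 at 8.62 ± 0.46 the brightest. Shares above background were 27.3% for the NK, 60% for the monocyte, 71.4% for the cDC2 and 88.9% for the plasmacytoid list. They were 75% for plasma cell and 41.7% for stromal markers, against 48.1% of all genes. The part of these cells in the levels above was not tested. Xist stood at 10.40 ± 0.11, and the Y-linked genes Kdm5d, Uty and Eif2s3y read between 3.05 and 3.47, below background.

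**Figure D5:**
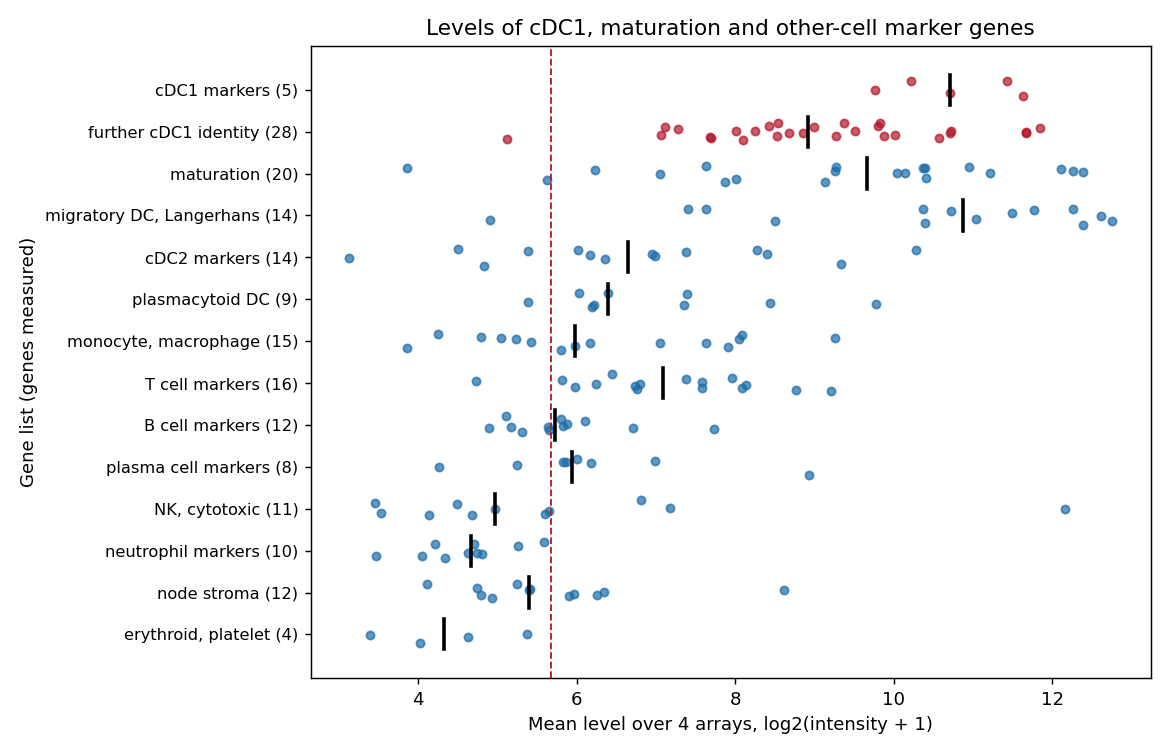
Mean levels over 4 arrays in log2(intensity + 1) of each measured gene (points) of the lists named on the vertical axis, with the list's median as a bar and the background level of 5.68 as a dashed line. All 5 cDC1 markers and 27 of 28 further identity genes lie right of the line, against 15 of 16 T cell, 6 of 12 B cell and 0 of 10 neutrophil markers. Over all genes the share was 48.1%.

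The spread between arrays was small for most genes. The median SD was 0.14 over all genes, 0.18 above background and 0.083 among the 100 brightest, and 159 genes above background had an SD over 0.5. Pairs of arrays correlated over all genes with a Pearson r between 0.987 and 0.996, a description across genes of arrays normalized together, and arrays 3 and 4 were the closest pair. Among genes above background, array 2 held 54 over 1 away on the log2 scale from the mean of the other 3 arrays. By the same count array 1 held 12, array 4 held 9 and array 3 held 3. Genes of smallest SD among the 1000 brightest included the endoplasmic reticulum chaperone gene Hspa5 (806, 798, 812 and 803, 9.65 ± 0.01), the splicing factor gene Sfpq (9.50 ± 0.02), the kinase subunit gene Csnk2a2 (9.98 ± 0.02) and Spi1.

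Genes of largest SD above background were dimmer, in a ranking that left out receptor segments and predicted or small RNA genes. The immunoglobulin kappa segment Igkv10-96, left out in this way, had a larger SD than any gene named here (5.74 ± 1.99). Zfp971, a zinc finger gene, read 126, 35, 206 and 306 (7.03 ± 1.34), and Xrcc4, a DNA repair gene, read 102, 42, 180 and 176 (6.77 ± 0.97). Jchain, which joins secreted immunoglobulins and marks plasma cells, read 29, 64, 129 and 40 (5.83 ± 0.91), with only arrays 2 and 3 above background. Cxcl13, which draws B cells into follicles, read 77, 125, 75 and 238 (6.85 ± 0.78), Prkcq, a kinase of T cell receptor signalling, read 163, 57, 99 and 188 (6.85 ± 0.77), and Nkg7, a granule gene of cytotoxic lymphocytes, read 132, 51, 167 and 138 (6.82 ± 0.76). The rest of the 10 had larger SDs than Cxcl13, Prkcq and Nkg7. Dusp18 read 177, 243, 90 and 62 (6.98 ± 0.89) and Vsig10 read 345, 165, 555 and 648 (8.57 ± 0.88). Gpr52 read 110, 59, 183 and 192 (6.95 ± 0.79) and Penk read 94, 32, 109 and 82 (6.19 ± 0.78). Array 2 was the lowest for Zfp971, Xrcc4, Prkcq, Nkg7, Vsig10, Gpr52 and Penk, and the highest for Dusp18. The T cell markers were lowest on array 2 too, and the part of other cells in this spread was not tested.

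Not every bright name could be tied to a RefSeq transcript of its gene. The probe set listed a RefSeq transcript of its own gene for 96 of the 100 brightest genes, and the exceptions were Gas5, Baiap2l1, Hk1 and the mitochondrial gene COX2. No probe set of Gas5 or COX2 listed one, so for these genes the check cannot tell which transcript gave the signal. Baiap2l1 ranked 23 at 12.78 ± 0.06, but the probe set that lists its RefSeq transcript read 4.08, below background. Hk1, hexokinase, ranked 78 at 11.94 ± 0.12, but its RefSeq probe set read 6.34. The ranks of Baiap2l1 and Hk1 are therefore not those of their RefSeq transcripts. A further 143 probe sets with several gene symbols and 131 with none were as bright as the 100 brightest genes, or brighter, and could not be ranked by gene. Of the 999 genes with more than 1 probe set, 150 had a next probe set over 2 lower on the log2 scale.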

How the data were processed

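Values for 35556 probe sets were deposited by the authors as linear intensity. Per the submitters' processing notes the 16 arrays had been normalized by RMA, of which no version is given in the sources used here. This step gives all arrays a common distribution, which would remove a shift shared by all genes, and shrinks differences between dim probe sets. The 4 arrays of Het cells from the non-draining node ranged from 3.45 to 15487 and were analysed as log2(intensity + 1). By the platform annotation 21789 probe sets had 1 gene symbol, 1621 several and 12146 none, and 99.6% of the first had a gene ID in RefSeq. Each gene was read on its brightest probe set on these arrays.

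Levels are means with SDs over 4 arrays, and no group was compared and no test made. Genes named are the 30 brightest outside ribosomal, small RNA, predicted and segment genes, the 5 brightest ribosomal protein genes, the 25, 30 and 20 brightest transcription factors, receptors and secreted factors and the 3 brightest of each class of these. Named too are the 5 markers, up to 4 genes per other list, the members of the identity, maturation and sex-linked lists, and, with predicted, small RNA and segment genes left out, the 10 genes above background of largest SD and the 10 of smallest SD among the 1000 brightest. Defining markers of other cells at or below background, H2-Ea, Igkv10-96, and genes picked out for a doubtful probe set were named after their values were seen. Cd207 and Siglech, both above background, were also named outside these rules. The genes and lists were chosen with earlier results of these data known, and 70 genes were removed from lists by their known function after values were seen. The ranking and the search for a distant array were tested on simulated data. Python 3.11.15, pandas 2.3.3, numpy 2.4.6 and matplotlib 3.10.9 were used. Alternatives changed the pseudocount, the background level, the probe set rule, the arrays used, the normalization and the lists.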

Additional observations from a re-analysis of the deposited data

Results flagged for a closer look

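In 9 of the 250 genes named (3.6%), 1 array lay far from the other 3 by Dixon's ratio, and chance alone puts about 1 in 20 groups past that limit. Array 1 was low for 3 of them, namely the ribosomal protein genes Rps14 (13.03 against a mean of 13.27 on the others) and Rplp0 (12.96 against 13.12) and the histone gene H2az1 (12.69 against 12.83). Array 2 was low for the actin-binding protein gene Lsp1 (12.19 against 12.45), the T cell receptor complex gene Cd3g (8.51 against 9.45), the checkpoint ligand gene Cd274 (7.70 against 7.92) and the perforin gene Prf1 (5.26 against 5.78, around background). Array 2 was high for the nascent chain gene Naca (12.06 against 11.99) and the surface gene Cd52 (10.87 against 10.77). For Cd3g the gap was close to 1 on the log2 scale, and T cell markers were lowest on array 2 as a list.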

How the results depend on the processing

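The 9583 genes above background numbered 9403 to 9659 with 1 array left out, and 517 transcription factors, 296 receptors and 160 secreted factors numbered 501 to 530, 293 to 302 and 155 to 162. With background at the 95th percentile the secreted factors above it were 292, so that count depends on where the level is set. With probe sets of several symbols added, 57 of the 100 brightest genes stayed among them, and with the median over probe sets 88 did and 28 ribosomal protein genes in place of 35. Of the 250 named genes, 22 moved by over 1 SD with the median over probe sets and 24 with a pseudocount of 16. With no pseudocount 4 moved, and with the added probe sets 2. None moved with the probe set chosen over all 16 arrays or with normalization repeated over genes above background. The other alternatives could not show a move. Fewer of the 4 arrays, or their median, cannot shift a mean by its SD, and the background level and lists do not enter a gene's level. Lists before genes were removed, an alternative chosen after seeing the data, gave 526 transcription factors, 297 receptors and 180 secreted factors. No paired analysis of groups was possible because no groups were compared, and neighbouring genes were not paired by array. Low signal limits genes near background, where RMA shrinks differences.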

Other observations

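Genes of the cell's basic machinery not described above were mostly above background, against 48.1% of all genes. Respiratory chain and ATP synthase genes were so for 78 of 83, with a median of 9.34, against a median of 5.58 over all genes. The brightest was Uqcrh, a hinge subunit of complex III, which read 3527, 3887, 4764 and 4654 (12.03 ± 0.21 in log2(intensity + 1), SD, n = 4), followed by the cytochrome oxidase genes Cox6b1 (11.65 ± 0.18) and Cox6a1 (11.62 ± 0.17). All 3 read higher on arrays 3 and 4 than on arrays 1 and 2. Proteasome and ubiquitin genes were above background for 79 of 87 (median 8.75), led by the conjugating enzyme gene Ube2d3 (12.49 ± 0.08), and RNA processing genes for 97 of 107 (median 7.82), led by the RNA-binding protein gene Pcbp2 (12.35 ± 0.09).

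Glycolysis genes lay above background for 12 of 14 (median 8.48). With Hk1 set aside for its doubtful probe set, the brightest were Aldoa (1030, 915, 1297 and 1232, 10.12 ± 0.23) and Pfkp (9.52 ± 0.29), and Ldha, which makes lactate, read 782, 669, 568 and 465 (9.25 ± 0.32), lowest on array 4. Chaperone genes were above background for 70 of 92 (median 7.29), led by the constitutive Hspa8 (6826, 7090, 6193 and 5933, 12.67 ± 0.12). Histone genes were so for 25 of 41 (61.0%, median 6.30), nearer the 48.1% of all genes, led by the variant histone gene H2az1 (12.79 ± 0.07). Transcription cofactor genes were so for 26 of 29, with the acetyltransferase gene Crebbp at 10.59 ± 0.14.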
